A study of Homo sapiens with 3 samples.

Results

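The sites described here are the BMAL1 and MAX binding sites around 3 human genes, RALGDS on chromosome 9 and the neighbours CDC25B and AP5S1 on chromosome 20. The genes were selected on the BMAL1 measurement itself, because they hold or flank BMAL1 peaks that rank near the top of the BMAL1 list by fold enrichment although they are not core clock genes. BMAL1 values are therefore given as a description and carry no test. All listed peaks of both factors whose summit lay in the body of a gene or within 20 kb of any of its annotated transcription start sites (TSSs) were taken, which gave 16 of the 14406 deposited peaks, 3 of the 756 BMAL1 peaks and 13 of the 13650 MAX peaks.

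The data come from chromatin immunoprecipitation and sequencing (ChIP-seq) in MDA-MB-231, a human breast cancer cell line of the triple-negative type. Chromatin of formaldehyde cross-linked cells, with no other treatment given in the labels, was precipitated with an antibody to BMAL1 or to MAX, and each antibody and the input control were sequenced as 1 library. BMAL1 peaks rest on 13866783 tags with at most 2 kept at the same position, MAX peaks on 11545865 tags with at most 1 kept, and the input on 29308882 tags. With 1 library for each antibody no value has a replicate check. The intervals given are exact 95% Poisson intervals of ChIP fragment counts that cover counting error only. Those of fold enrichment divide the interval of the pileup by a background taken as fixed. They leave out the counting error of the input and are too narrow for that reason. Input levels given below are that background scaled to the tags of the input. They are not counts of fragments, and how many input fragments each rests on is not known here. A place without a listed peak is a place where none passed the peak caller's cutoff at this depth. Peak lists hold no expression values, so the label of the cell line was not checked against marker genes.

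BMAL1 pairs with CLOCK to form the activator of the circadian clock, and MAX pairs with MYC, with MAX-dimerisation partners such as MNT, or with itself. Both belong to the basic helix-loop-helix family and recognise the same DNA element, the E-box CACGTG. RALGDS encodes an exchange factor that is recruited by active Ras and loads the Ral GTPases with GTP. CDC25B encodes a phosphatase that activates cyclin-dependent kinases before mitosis, and AP5S1 the small subunit of AP-5, an adaptor complex of late endosomes.

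The 3 BMAL1 peaks are shown first by the sequence under their summits, since each held an E-box in these 200 bases. Sequences are the plus strand of hg19 (GRCh37), 200 bases centred on the BMAL1 summit, with the E-box in capitals. The RALGDS promoter site is chr9:136024813-136025012, the site upstream of AP5S1 is chr20:3792453-3792652, and the site at the 5′ end of the long non-coding RNA gene LINC01730, between CDC25B and AP5S1, is chr20:3788862-3789061.
RALGDS promoter: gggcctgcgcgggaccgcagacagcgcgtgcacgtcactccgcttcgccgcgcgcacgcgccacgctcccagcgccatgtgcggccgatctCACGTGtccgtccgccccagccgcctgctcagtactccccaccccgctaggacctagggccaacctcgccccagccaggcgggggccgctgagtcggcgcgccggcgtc
AP5S1 upstream: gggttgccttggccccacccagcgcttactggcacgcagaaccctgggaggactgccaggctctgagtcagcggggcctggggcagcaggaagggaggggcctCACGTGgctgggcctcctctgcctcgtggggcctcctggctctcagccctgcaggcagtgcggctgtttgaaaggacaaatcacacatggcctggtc
LINC01730 5′ end: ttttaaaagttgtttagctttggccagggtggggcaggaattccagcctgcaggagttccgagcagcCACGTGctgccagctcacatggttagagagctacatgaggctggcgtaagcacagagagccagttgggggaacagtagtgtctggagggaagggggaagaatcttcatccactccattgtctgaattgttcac

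At all 3 of these sites a BMAL1 peak overlapped a MAX peak, with BMAL1 above MAX in fold enrichment at each. The peaks come from separate libraries, so whether both factors bind the same DNA molecule at once was not tested. The sites differed in how far apart the 2 values were. The RALGDS promoter and the site upstream of AP5S1 had a BMAL1 fold enrichment of 84.8 and 98.6 beside a MAX fold enrichment of 12.2 and 16.8. The LINC01730 site had a lower BMAL1 value, 32.9, and a MAX value of 18.7, the highest of the 13 MAX peaks, though within the counting error of others. The remaining 10 MAX peaks carried no BMAL1 peak. They lay in RALGDS introns, at an alternative start of CDC25B and at or near the starts of genes that flank CDC25B, AP5S1 among them.

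RALGDS is transcribed from the minus strand of chromosome 9 (135973107 to 136024721, 15 annotated TSSs). Its BMAL1 peak spanned chr9:136024646-136025348, with the summit at 136024913, 192 bp upstream of the 5′-most RALGDS TSS. The annotation also places this position in an intron of ENSG00000285245, a protein-coding model without a symbol that joins RALGDS and the neighbouring gene GBGT1. The pileup, the number of extended fragments covering the summit, was 166 (interval 142 to 193), which gave the fold enrichment over local input background of 84.8 (72.3 to 98.7), the fifth highest of the 756 BMAL1 peaks. By pileup the peak ranked 18 and by −log10 p, 252, it ranked 8. The local background at this promoter was 1.27 times the genome-wide expectation, an implied input level of about 4.14 fragments, the lowest of the 3 BMAL1 sites.

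A BMAL1 peak lies by the same window rule at 4.98% of all 20136 protein-coding genes and a MAX peak at 54.8%. RALGDS had 1 BMAL1 and 7 MAX peaks in its window of 88.8 kb. Of all protein-coding genes, 99 (0.492%) had 7 or more MAX peaks by this rule, and the median gene had 1 MAX peak in a window of 56.1 kb. Per 100 kb, RALGDS held 7.88 MAX peaks against 1.03 over all protein-coding genes.

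The MAX peak at the RALGDS promoter (chr9:136024781-136025124) had its summit 9 bp from that of BMAL1. It was a moderate peak, with a pileup of 20 (interval 12.2 to 30.9) and a fold enrichment of 12.2 (7.43 to 18.8), above 73.8% of the MAX list by fold enrichment and above 58.7% by pileup. It was also short, 344 bp, shorter than most of the list, while the BMAL1 peak around it was 703 bp long, longer than 93.1% of BMAL1 peaks. A further MAX peak had its summit 701 bp downstream of the same TSS (fold enrichment 7.62, pileup 18).

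The other 5 MAX peaks of RALGDS lay in introns, 4884, 13926, 15374, 34541 and 45898 bp from the 5′ end of the gene. From the nearest annotated RALGDS TSS of any kind they lay 4884, 4291, 2843, 5955 and 895 bp away, in the same order. Their fold enrichments in this order were 11.97, 11.0, 10.6, 7.62 and 8.88, with pileups of 33, 26, 25, 18 and 21. None of the 7 MAX peaks of RALGDS stood apart from the others, since the counting interval of each overlapped that of every other. All intervals also included or reached below 9.73, the median of the whole MAX list. No intronic BMAL1 peak was listed in RALGDS.

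**Figure D1:**
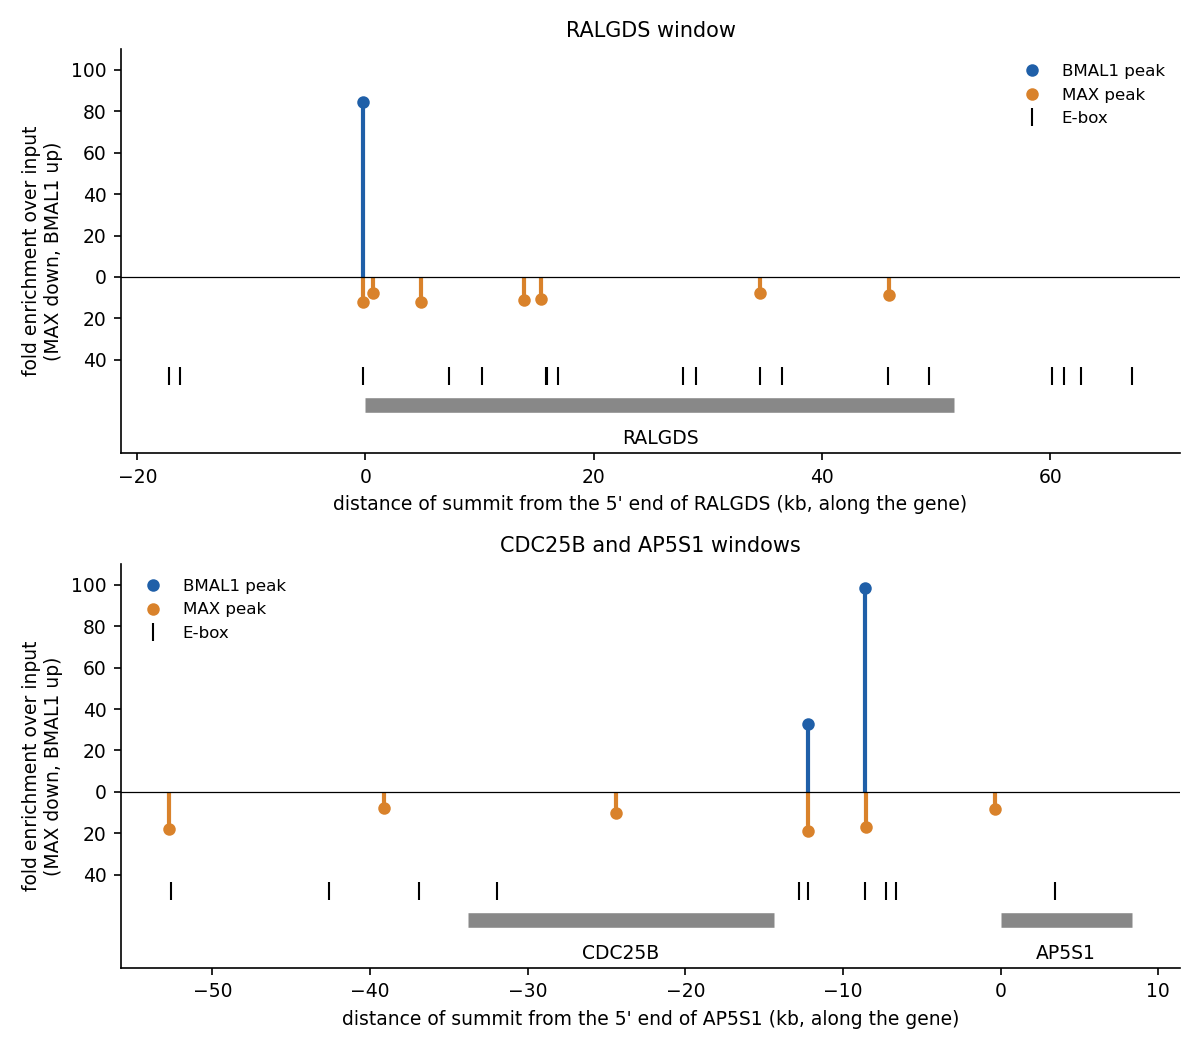
Peaks in the RALGDS window (top) and in the joined CDC25B and AP5S1 windows (bottom), plotted by the distance of the summit from the 5′ end of RALGDS or of AP5S1 in kb along the gene, with BMAL1 fold enrichment upward, MAX fold enrichment downward, E-boxes as ticks and gene bodies as bars. The 3 BMAL1 peaks, at 84.8, 32.9 and 98.6, each stand over a MAX peak, and 10 further MAX peaks stand alone.

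On chromosome 20, both BMAL1 peaks lay between CDC25B (3767419 to 3786768, plus strand, 8 annotated TSSs) and AP5S1 (3801171 to 3809485, plus strand), and by the window rule both are shared by the 2 genes. Their summits were 3591 bp apart. Of the 756 BMAL1 summits, 39 (5.16%) had another BMAL1 summit within 5 kb, and 68 protein-coding genes (0.338%) had 2 or more BMAL1 peaks in their window. No BMAL1 summit lay in the body of either gene.

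The stronger of the pair spanned chr20:3792100-3793055, with its summit at 3792553, 8618 bp upstream of AP5S1 and in an intron of LINC01730 and of the non-coding gene ENSG00000274949, whose TSS lay 522 bp from the summit. Its pileup of 238 (interval 209 to 270) gave a fold enrichment of 98.6 (86.5 to 112), and it ranked 3 by fold enrichment, 6 by pileup and 2 by −log10 p (376). Only the peaks at the clock genes NR1D1 and PER1 had a higher BMAL1 fold enrichment. The background was 1.57 times the genome-wide level, an implied input level of about 5.10 fragments.

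The other BMAL1 peak spanned chr20:3788081-3789377, with its summit at 3788962, 42 bp upstream of the LINC01730 TSS, 5546 bp downstream of the nearest CDC25B TSS of any kind and 12209 bp upstream of AP5S1. Its pileup was 109 (interval 89.5 to 131) and its fold enrichment 32.9 (27.0 to 39.7), rank 35 by fold enrichment, 36 by pileup and 24 by −log10 p (122). At 1297 bp it was longer than 99.1% of BMAL1 peaks. The background here was 2.15 times the genome-wide level, an implied input level of about 7.0 fragments, the highest of the 3 BMAL1 sites.

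MAX ordered these neighbouring sites the other way. At the LINC01730 5′ end the MAX pileup was 59 (interval 44.9 to 76.1), against 33 (22.7 to 46.3) upstream of AP5S1. The ratio of the AP5S1 upstream site to the LINC01730 site was 0.559 for MAX (exact interval 0.354 to 0.871) and 2.18 for BMAL1 (1.73 to 2.76). By fold enrichment, which divides by the higher background at LINC01730, the MAX ratio was 0.895 and the 2 counting intervals, 14.3 to 24.1 and 11.5 to 23.5, overlapped. The reversed order was thus seen in fragment counts and was not resolved in fold enrichment.

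The MAX peak at LINC01730 (chr20:3787934-3789251) was above 94.9% of the MAX list by fold enrichment and above 99.4% by pileup. Its length of 1318 bp was above that of 99.2% of MAX peaks. The MAX peak upstream of AP5S1 (chr20:3792255-3792900) was above 91.6% by fold enrichment and 92.6% by pileup.

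The remaining 4 MAX peaks of the chromosome 20 windows lay at or near the starts of protein-coding genes and overlapped no BMAL1 peak. At CDC25B itself the MAX peak was at an alternative start, in an intron 9334 bp into the gene and 185 bp upstream of that TSS, with a fold enrichment of 10.1 (5.53 to 16.98) on a pileup of 14, the lowest of the 13. At AP5S1 it was 336 bp upstream of the TSS, with a fold enrichment of 8.46 (5.01 to 13.4) on a pileup of 18. These 2 peaks were above 52.8% and 30.7% of the MAX list by fold enrichment, with values below those of both MAX peaks between the genes. The counting interval at CDC25B overlapped those of both peaks between the genes. That at the AP5S1 start overlapped only that of the peak upstream of AP5S1, so this order was not resolved in full.

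The other 2 belong to neighbours of CDC25B. ADISSP, which encodes a signalling protein secreted by adipose tissue, had a MAX peak 11 bp upstream of its TSS with a fold enrichment of 17.8 (12.4 to 24.7) and a pileup of 35, above 93.3% of the list. SPEF1, which encodes a microtubule-binding protein of cilia and flagella, had a MAX peak 26 bp downstream of its TSS with a fold enrichment of 7.73 (4.78 to 11.8) and a pileup of 21, above 23.3%. The ADISSP peak lay 18980 bp from the nearest CDC25B TSS, the largest such distance among the 16 peaks. Of the 13 MAX peaks, it alone was lost when 10 kb replaced 20 kb.

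CDC25B had 6 MAX peaks in its window and AP5S1 3, all 3 of them shared with CDC25B. At least 6 MAX peaks were found for 212 protein-coding genes (1.05%) and at least 3 for 2285 (11.3%). Just outside the windows, the nearest MAX peak on chromosome 20 was at PANK2, 68.7 kb from a TSS of these genes, with a fold enrichment of 8.96. On chromosome 9 the nearest were at TSC1, 155778 bp away (fold enrichment 9.18), and at SURF6, 178336 bp away (15.5). The closest further BMAL1 peak, at TRIB3 on chromosome 20, was 3424.15 kb away (fold enrichment 7.05).

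**Figure D2:**
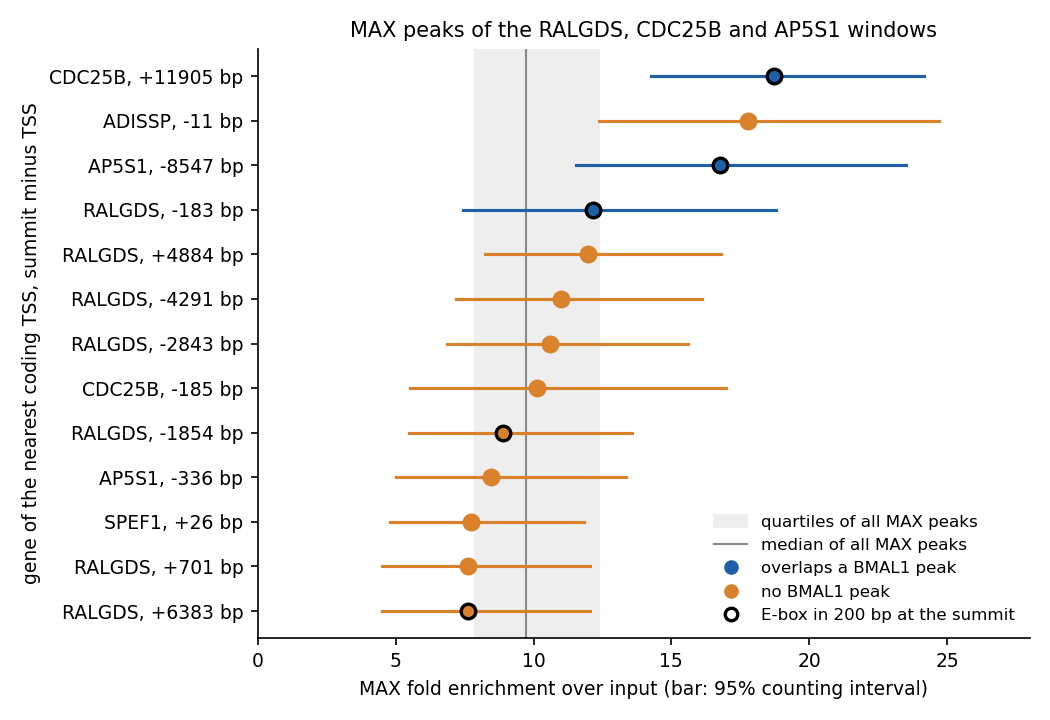
MAX fold enrichment over input (x axis) of the 13 MAX peaks, each named by the gene of its nearest protein-coding TSS and the signed distance of the summit from that TSS, with 95% counting intervals as bars. The 3 peaks that overlap a BMAL1 peak (blue) lie at 18.7, 16.8 and 12.2, the 10 others between 7.62 and 17.8, and grey marks the quartiles and the median (9.73) of all MAX peaks.

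In the whole BMAL1 list 84.1% of peaks overlapped a MAX peak by at least 1 bp, and here 3 of 3 did. In the whole MAX list 4.67% overlapped a BMAL1 peak, and here 3 of 13 did, a share that follows from choosing the genes for their BMAL1 peaks. The 3 shared MAX peaks had a median fold enrichment of 16.8 (12.2 to 18.7), beside 13.8 over all 637 MAX peaks that overlap BMAL1. The 10 others had a median of 9.5 (7.62 to 17.8), beside 9.65 over the other 13013. The implied input level was between 3.51 and 8.00 fragments at all 16 peaks.

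Scaled per 1000000 tags, the RALGDS summit carried 11.97 BMAL1 and 1.73 MAX fragments, a ratio of 6.91 (exact interval 4.33 to 11.6). Upstream of AP5S1 these were 17.2 and 2.86, a ratio of 6.01 (4.16 to 8.93). At LINC01730 they were 7.86 and 5.11, a ratio of 1.54 (1.11 to 2.15). The median of this ratio over all 636 BMAL1 peaks with a MAX peak was 0.799.

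In fold enrichment the BMAL1 to MAX ratio was 6.96 at RALGDS and 5.89 upstream of AP5S1, ranks 1 and 2 of 636. It was 1.76 at LINC01730, rank 59, and the median was 0.793, with quartiles of 0.562 and 1.18. The numerator of this ratio chose the sites, the libraries kept different numbers of duplicate tags, and the antibodies differ, so the ranks describe these lists and the part of each in the ratio was not tested. The summits of the 2 factors lay 9 bp apart at RALGDS, 21 bp at LINC01730 and 71 bp upstream of AP5S1, beside a median of 54 bp.

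**Figure D3:**
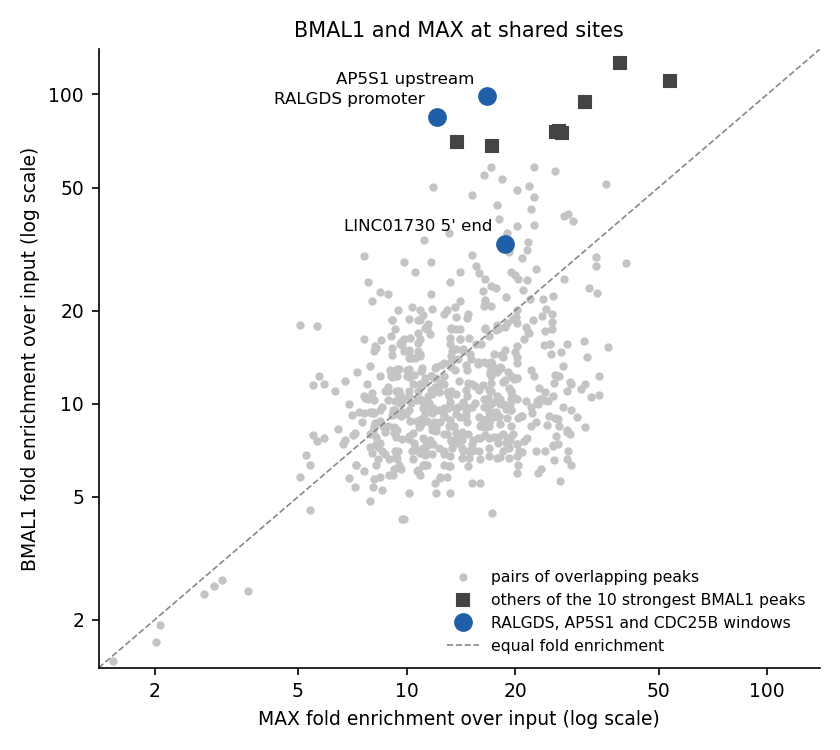
BMAL1 fold enrichment (y axis, log scale) against MAX fold enrichment (x axis, log scale) for the 636 pairs of overlapping peaks, with the other 8 of the 10 strongest BMAL1 peaks as squares and the RALGDS, AP5S1 upstream and LINC01730 sites in blue. RALGDS (84.8 and 12.2) and AP5S1 upstream (98.6 and 16.8) lie to the left of most of the strongest BMAL1 peaks, at ratios of 6.96 and 5.89, while LINC01730 (32.9 and 18.7) lies nearer the line of equal enrichment.

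All of the 10 BMAL1 peaks of highest fold enrichment overlapped a MAX peak. Each is named here by the gene of its nearest protein-coding TSS, and most of the other 8 genes belong to the clock. NR1D1 (BMAL1 fold enrichment 126.8) encodes a receptor that represses BMAL1, PER1 (110.7), CRY1 (75.6) and CRY2 (75.2) encode the repressors of CLOCK and BMAL1, and DBP (94.6) and HLF (68.3) encode transcription factors of the clock output. CSNK1D (70.1) encodes a kinase of PER proteins, and MMRN2 (76.1) an extracellular matrix protein. The signed distance of the summit from that TSS (negative upstream) was -26552 bp at HLF and -14470 bp at CSNK1D, and between -1909 and 1427 bp at the other 6 genes. MAX fold enrichment at these 8 ran from 13.8 to 53.9 with a median of 26.7. RALGDS, at 12.2, had the lowest MAX value of the 10 and AP5S1 upstream, at 16.8, the third lowest, with CSNK1D (13.8) between them. The BMAL1 to MAX ratio of the 8 ran from 2.05 at PER1 to 5.09 at CSNK1D. The intervals at RALGDS and upstream of AP5S1 are of the pileup ratio, whereas 5.09 is a ratio of fold enrichments with counting error of its own. Both intervals include 5.09, and the order of these 2 sites against CSNK1D was not resolved at this depth. The counting interval of MAX at RALGDS, 7.43 to 18.8, included the values at CSNK1D and HLF (17.3). The values at the other 6 were 26.0 or higher and carry counting error of their own.

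E-boxes were counted as CACGTG, which reads the same on both strands, in the 200 bases at each summit. All 3 BMAL1 peaks held it, beside 75.3% of the BMAL1 list, and 5 of the 13 MAX peaks, beside 21.2% of the MAX list. Of these 5, 3 are the MAX peaks shared with BMAL1 and 2 lie in RALGDS introns. Each BMAL1 window held exactly 1 copy, as did 60.3% of the list.

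The centre of the E-box lay 5.5 bp from the BMAL1 summit upstream of AP5S1, 6.5 bp at RALGDS and 30.5 bp at LINC01730, beside a median of 23.5 bp (quartiles 10.5 and 43.5) over the 569 BMAL1 peaks with an E-box. The same copies lay 65.5, 2.5 and 51.5 bp from the MAX summits, where the median of the list was 34.5 bp. At RALGDS both summits therefore fell on the E-box within 6.5 bp, whereas upstream of AP5S1 only BMAL1 did. The LINC01730 peak of BMAL1 held a second E-box, 599 bp from its summit.

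The bases next to the E-box differed among the sites, as the sequences above show. RALGDS had T on both sides, a context found at 15.0% of the E-boxes nearest to BMAL1 summits and 4.56% of those nearest to MAX summits. AP5S1 upstream had T before and G after it (22.2% of BMAL1 and 11.4% of MAX, either strand). LINC01730 had C on both sides (15.8% and 21.8%). Of the 5 copies of the windows inside a MAX peak alone, 2 had C on both sides, both within 100 bp of a MAX summit in RALGDS introns. These are matches of letters at few sites, and whether they bear on the binding was not tested.

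In base composition the RALGDS site was a CpG-rich promoter and the chromosome 20 sites were not. The GC share of the 200 bases was 76.0% at RALGDS, 67.0% upstream of AP5S1 and 52.5% at LINC01730, around a BMAL1 median of 60%. The ratio of observed to expected CpG, the number of CG steps over that expected from the C and G content, was 1.07, 0.268 and 0.229, around a median of 0.535. RALGDS was above 96.0% of BMAL1 summits, AP5S1 upstream above 16.0% and LINC01730 above 11.6%. High BMAL1 fold enrichment thus occurred here in both kinds of sequence.

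**Figure D4:**
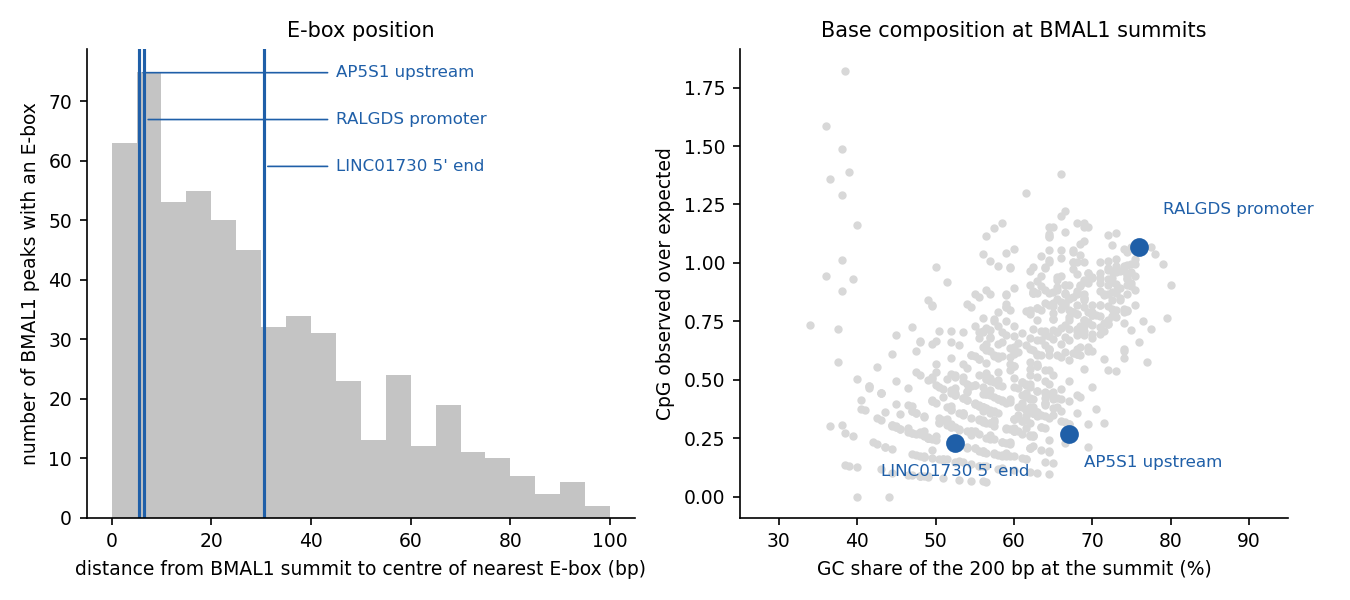
Left, distance in bp from the BMAL1 summit to the centre of the nearest E-box over the 569 BMAL1 peaks that have it within the 200 bases (bars count peaks), with the 3 sites as lines at 5.5, 6.5 and 30.5 bp. Right, GC share in percent against the ratio of observed to expected CpG for all 756 BMAL1 summits (grey points), with RALGDS at 76.0% and 1.07 and both chromosome 20 sites below 0.3 in CpG.

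Other motifs were searched on both strands of the same windows. RALGDS held CACGCG, a variant E-box known to be bound by MYC and MAX, at 2 places 76 and 46 bp before the BMAL1 summit, and GGGCGG, the GC box of SP and KLF factors, at 1. CACGCG occurred at 13.5% and GGGCGG at 33.7% of BMAL1 windows. AP5S1 upstream held TGANTCA, the core of the AP-1 element, 37 bp before the summit, as did 18.1% of BMAL1 windows.

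Among the 13 MAX peaks TGANTCA was found at 2, both in RALGDS introns and each with 2 copies (16.1% of the MAX list), and GGGCGG at 6 (34.2%). Those 6 were the peaks at ADISSP, SPEF1, CDC25B, AP5S1 and the RALGDS promoter and the peak 4884 bp into RALGDS. The E′-box CACGTT, the D-box TTATGTAA and pairs of E-boxes or E′-boxes with 6 or 7 bases between them were found at none of the 16 summits. Such pairs were rare in the whole BMAL1 list as well (0.794%).

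Most E-boxes of these genes carried no peak. The windows held 28 copies of CACGTG, 18 in the RALGDS window and 10 in the joined CDC25B and AP5S1 windows. Of these, 4 lay inside a BMAL1 peak, 9 inside a MAX peak and 19 in neither. Over the 275867 copies in the genome these shares were 0.308% for BMAL1 and 1.73% for MAX, and nothing is read from the difference, since the windows were chosen for their peaks. Every copy inside a BMAL1 peak was also inside a MAX peak, and 5 copies were inside a MAX peak alone. Of those 5, 2 lay 470 and 545 bp from the summit of the MAX peak that covers them.

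The sequences around 4 copies of the RALGDS window are shown as examples of copies with and without a peak. Each is 30 bases of the plus strand of hg19 with the E-box in capitals. The first is under BMAL1 and MAX, the second and the third are under MAX alone, and the fourth, 252 bp upstream of an alternative RALGDS start and in a CpG-rich window (0.899), had no listed peak and was picked because its E-box has T on both sides, as at the RALGDS promoter.
RALGDS promoter, chr9:136024892-136024921: tgcggccgatctCACGTGtccgtccgcccc
RALGDS intron, chr9:135978878-135978907: ctgctcagccacCACGTGccgcctgaccgc
RALGDS intron, chr9:135990119-135990148: agaaaagaacacCACGTGcttggctgtgtc
RALGDS alternative start, chr9:135996867-135996896: aggaccggctgtCACGTGtgtcgtggggcc
The copy at the alternative start was the only 1 of the 19 copies without a peak with T on both sides, and 3 of the 19 had C on both sides, read on either strand. The copies in the coding sequence of AP5S1 (position 3804622 of chromosome 20) and in an intron of CDC25B (3769251) had no listed peak either.

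Lists of related genes were read with the same window rule, beside the 4.98% of protein-coding genes with a BMAL1 peak and the 54.8% with a MAX peak. Of 19 genes of Ral signalling, 3 had a BMAL1 peak: RALGDS and 2 other exchange factor genes, RALGPS1 (fold enrichment 27.8) and RGL3 (7.05). Leaving out RALGDS, this was 2 of 18. The RALGPS1 window spans 337903 bp and that of RGL3 61783 bp, against a median of 56.1 kb over all protein-coding genes. The shares were not matched for window length. A MAX peak was found at 12 of the 19 genes and, leaving out RALGDS, at 11 of 18 (61.1%). The highest MAX values were at the small GTPase gene RRAS (16.9), at RALGPS1 (15.6) and at HRAS (15.3), all above the 12.2 at the RALGDS promoter.

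Of 15 genes around CDC25 and mitotic entry, only CDC25B had a BMAL1 peak and 12 had a MAX peak, 11 of 14 (78.6%) without CDC25B. MAX was highest at WEE1 (39.6), the kinase that opposes CDC25, and at CCNB1 (28.1), the mitotic cyclin B1, followed by CDC25B (18.7, the LINC01730 peak). CENPB, a centromere protein gene that borders CDC25B, is in this list and shares MAX peaks with CDC25B. Of 6 genes of AP-5 and its partners, only AP5S1 had a BMAL1 peak and 4 had a MAX peak, 3 of 5 (60%) without AP5S1. These included SPG11 (13.9) and ZFYVE26 (6.35), which encode the proteins that bind AP-5. The genes with BMAL1 peaks that gave the lists their names were chosen for those peaks, so their counts are no evidence about the pathways.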

How the data were processed

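The authors aligned single reads on hg19 with BWA 0.6.2 and called peaks with MACS2 2.0.9 for each antibody against the same input. The deposited pileup is a signal, the coverage of fragments extended to 300 bp at the summit, not scaled to depth. The deposited fold enrichment is the ratio of that pileup to the local input background. The deposited −log10 p-values and q-values are the caller's. The headers record a p cutoff of 1e-05 and the methods 1e-08, and all listed peaks were used. The median pileup was 24 fragments in the BMAL1 list and 18 in the MAX list.

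From these lists, peaks were assigned to genes with GENCODE release 44 on GRCh37, and sequence was read from GRCh37. Background was taken as pileup over fold enrichment and expressed as an input level by the ratio of the libraries' tags. Ratios of pileups carry exact conditional binomial intervals. Where a BMAL1 peak overlapped several MAX peaks, that with the longest overlap was used. The genes, windows and lists were chosen with earlier results of these data known. Named genes were RALGDS, AP5S1 and CDC25B, those nearest to a peak of their windows or to the 10 strongest BMAL1 peaks, listed genes with a BMAL1 peak and those with the 3 highest MAX values. TSC1, SURF6, PANK2 and TRIB3, named for the nearest peaks outside the windows, and GBGT1 were added after their values were seen. Alternatives covered the p threshold, window size, TSS set, overlap rule, measure, E-box window and gene rule. Steps were tested on simulated data. The input signal itself and the study's other experiments were not analysed here. Python 3.11.15, numpy 2.4.6, pandas 2.3.3, scipy 1.17.1 and matplotlib 3.10.9 were used.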

Additional observations from a re-analysis of the deposited data

How the results depend on the processing

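Of 43 alternatives over 20 results, 8 moved a count by more than 1.5 times or a percentile beyond its counting interval. The other 35 stayed within these limits, and a reversal of direction was not checked. For the BMAL1 to MAX ratio at the 3 sites, the limits were those of the pileup ratio, which was also the alternative. Its percentiles could therefore hardly move, and nothing is read from their staying. The 3 BMAL1 peaks, their overlap with MAX and their E-boxes were found under each alternative tried. The genes were chosen for these peaks, whose −log10 p was 122 or higher and whose summits lay within 10 kb of a TSS. The p thresholds and window sizes tried could therefore not remove them, and nothing is read from this. The MAX peaks numbered 9 at a −log10 p of at least 12 and 12 with 10 kb windows. With 100 bases at the summit, 2 of the 13 MAX peaks held an E-box in place of 5, and within 100 bp of a MAX summit lay 5 E-box copies in place of the 9 inside MAX peaks. With the summit required within 1 kb of a TSS, the Ral list had 1 gene with a BMAL1 peak (RALGDS) and 6 with a MAX peak, and the CDC25 and AP-5 lists had 0 with a BMAL1 peak. The MAX peak at LINC01730 was above 99.1% of the list by −log10 p and 99.4% by pileup, in place of 94.9%. No paired analysis was possible because there was 1 library for each antibody. MAX pileups of 14 to 59 give wide counting intervals, and more depth could add weaker peaks to either list.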
